A study of Mus musculus with 60 samples.

Results

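The measurements below concern 10 genes of the circadian clock in mouse whole blood: Arntl, Clock, Per1, Per2, Per3, Ciart, Nr1d1, Nr1d2, Dbp and Tef. They are core components and outputs of the clock and were matched to the count tables by symbol and Ensembl identifier. All 10 were found among the 49315 genes counted, and all 10 were among the 29271 genes with at least 10 counts summed over the 60 mice. The question was whether blood taken from the 10 groups of the study carried the same clock gene levels, since a difference in the hour of sampling moves these genes.

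The mice were male CD2F1 animals that received BIO 300, an oral powder formulation of the soy isoflavone genistein, or its vehicle before any irradiation, and each of the 10 groups held 6 mice. Vehicle, Low (50 mg/kg), Med (100 mg/kg) and High (200 mg/kg) groups were bled on Day 0, when 24 h had passed since dosing ended. Other vehicle, Low, Med and High groups were bled on Day 1, when 48 h had passed. A further vehicle group and a further High group received 9.2 Gy of total body irradiation (TBI) from a cobalt source on Day 0 and were bled on Day 1. The dose words are those of the labels and the doses in mg/kg those of the methods. Every mouse was bled once, terminally, from the inferior vena cava under isoflurane, and RNA was prepared from blood kept in PAXgene tubes. The hour of the day at which each mouse was bled was not given in the sources used here. The mice were kept in cages of several animals, and the cage of each mouse was likewise not given.

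In the mammalian clock, ARNTL (also called BMAL1) and CLOCK form a dimer that binds E-boxes and activates the Period and Cryptochrome genes, whose proteins return to repress it. A second loop runs through the nuclear receptors NR1D1 and NR1D2 (REV-ERB alpha and beta), which repress Arntl, so that Arntl and its repressors peak at opposite hours of the day. DBP and TEF are transcription factors of the proline and acidic amino acid rich family that carry the rhythm to output genes through D-boxes, and Dbp transcript is among the most strongly cycling in many tissues. The clock runs in liver and in circulating leukocytes, while mature erythrocytes of mammals lack a nucleus.

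The sequence just before the annotated start of these genes was searched for the elements through which the loop is described to act. RefSeq windows of 250 bases on GRCm38.p6 were found for 9 of the 10 genes, in 14 windows because some genes have several starts. Letters were searched on both strands: the E-box CACGTG, the D-box as TTATGTAA or TTACGTAA, and AGGTCA, the half-site bound by REV-ERB receptors. An E-box lay in a window of 3 genes (Ciart, Per1 and Tef), against 6.02% of 32851 RefSeq windows of the same length. A D-box lay in the window of 1 gene, Per3, against 0.931% of the windows, and AGGTCA in a window of 3 genes (Per1, Clock and Nr1d2), against 14% of the windows. No window of Arntl, Nr1d1 or Dbp held any of these letters. A gene with several windows has more chances of a match, so counts of genes and shares of windows are unlike measures. The full REV-ERB response element (0.177% of windows) and the palindromic glucocorticoid response element (0.00913% of windows) were in no window of the 9 genes. The windows of 5 genes are printed 5′ to 3′, 4 because they hold these elements and that of Arntl because the results turn on this gene. Capitals mark the matched letters, on either strand.
Ciart, chr3:95882252-95882478, minus strand, 3 E-boxes: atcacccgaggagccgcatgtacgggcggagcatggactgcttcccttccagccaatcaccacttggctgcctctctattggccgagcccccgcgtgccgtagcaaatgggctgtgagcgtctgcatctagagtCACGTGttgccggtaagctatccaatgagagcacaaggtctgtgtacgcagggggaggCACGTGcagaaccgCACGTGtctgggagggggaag
Per1, chr11:69098699-69098947, plus strand, 1 E-box and 1 AGGTCA: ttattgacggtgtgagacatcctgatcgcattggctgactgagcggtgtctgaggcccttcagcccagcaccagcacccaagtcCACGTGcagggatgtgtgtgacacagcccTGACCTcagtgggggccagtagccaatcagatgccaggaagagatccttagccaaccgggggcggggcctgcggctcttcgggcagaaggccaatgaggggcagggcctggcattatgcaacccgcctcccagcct
Tef, chr15:81811164-81811413, plus strand, 1 E-box: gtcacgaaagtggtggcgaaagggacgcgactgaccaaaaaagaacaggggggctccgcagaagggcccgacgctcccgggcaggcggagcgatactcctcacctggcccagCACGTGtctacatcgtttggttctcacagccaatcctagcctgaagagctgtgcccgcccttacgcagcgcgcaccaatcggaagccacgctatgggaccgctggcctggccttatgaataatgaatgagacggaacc
Per3, chr4:151044666-151044915, minus strand, 2 D-boxes: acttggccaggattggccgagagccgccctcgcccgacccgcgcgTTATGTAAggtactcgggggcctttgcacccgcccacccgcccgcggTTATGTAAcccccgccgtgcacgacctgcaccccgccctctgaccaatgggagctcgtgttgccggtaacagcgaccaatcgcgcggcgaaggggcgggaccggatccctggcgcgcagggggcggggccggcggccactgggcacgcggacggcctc
Arntl, chr7:113207215-113207464, plus strand, none of the elements: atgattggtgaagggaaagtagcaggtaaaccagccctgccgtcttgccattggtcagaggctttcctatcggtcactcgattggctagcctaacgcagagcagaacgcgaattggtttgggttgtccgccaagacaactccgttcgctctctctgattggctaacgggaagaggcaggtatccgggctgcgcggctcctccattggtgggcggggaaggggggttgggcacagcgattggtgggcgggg
A match of letters is a description of the window and not a measured binding site, and stretches that lie in an exon of the same gene were left out of the printed windows.

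Libraries held between 15099415 and 45589415 counts per mouse, with a median of 24877993.5. In content, 10 mice did stand apart. Of 16 hepatocyte genes, 14 or more exceeded 10 CPM, counts scaled to a common library size, in each of these 10 mice, against 9 in the mouse next in order. Alb, the serum albumin gene of hepatocytes, was between 455 and 16057 CPM in them, against a median of 0.0437 and a highest value of 121 CPM in the other 50 mice. They are called mice with liver transcripts below. They lay in 9 of the 10 groups, with 2 in vehicle TBI, 0 in Low Day 1 and 1 in each other group, and many of the results below are therefore also given without them. All marker genes of erythroid cells and platelets were detected in every group, as the label of whole blood requires.

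Clock genes were high in the mice with liver transcripts. Nr1d1 in these 10 mice was between 2.79 and 19.8 times the median of the other mice of the same group, with a median of 7.74 times. Dbp was between 1.41 and 18.5 times that median, with a median of 3.82 times. Tef reached 11.9 times with a median of 2.54 times, and Nr1d2 reached 9.71 times with a median of 1.96 times. Each of these 4 genes lay above the whole range of its group's other mice in 10 of 10 mice. Per3 and Per2 did so in 9 of 10 mice, Ciart in 8, and Per1 and Clock in 5. These mice were picked for transcripts of another tissue, and the share of all genes above range in them was not counted. The excess is therefore not shown to be particular to clock genes. Arntl went the other way, with a median of 0.814 times, below the range of the group's other mice in 5 mice, within it in 4 and above it in 1. The highest single values of most genes in the whole series therefore came from these mice. In vehicle TBI mouse 51, with Alb at 16057 CPM, Tef was 127 CPM, Nr1d2 79.9 CPM and Dbp 46.4 CPM, while Arntl was 1.78 CPM.

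**Figure D1:**
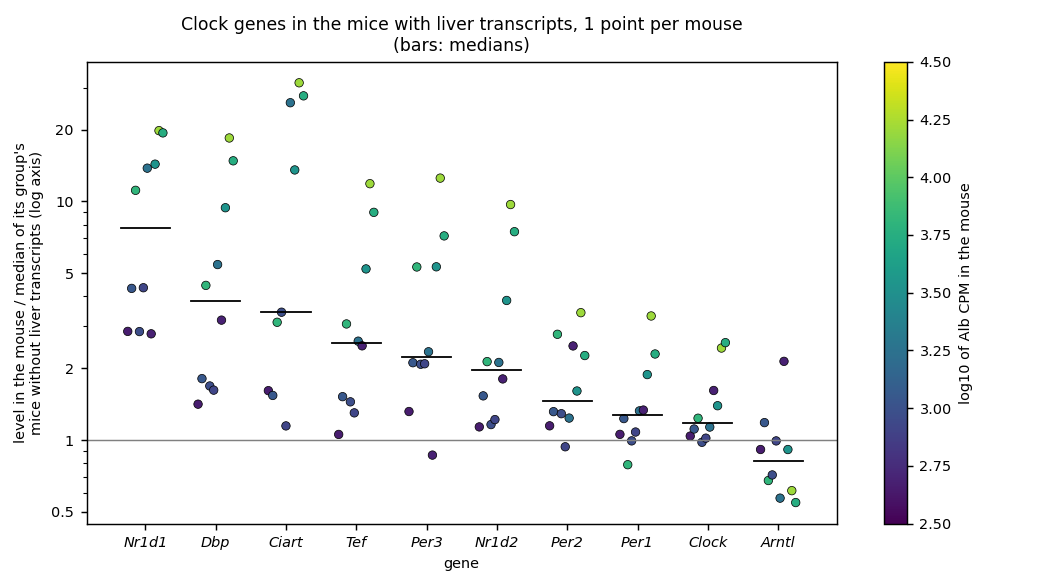
Level of each clock gene in each of the 10 mice with liver transcripts, divided by the median of the other mice of its group (log axis), with the median as a bar and log10 of the Alb level in CPM as the colour. Nr1d1 lies between 2.79 and 19.8 times that median, while Arntl has a median of 0.814 times. Ciart has no point for mouse 43, whose group median is 0.

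The 10 genes differed in level. Per length, over the 50 mice without liver transcripts, Per1 had the highest median at 2.82 CPM per kb of exon, followed by Nr1d2 at 2.60, Tef at 1.78 and Clock at 1.32. Arntl and Dbp were both at 1.21 CPM per kb and Per2 at 0.939. Nr1d1 at 0.485, Per3 at 0.242 and Ciart at 0.200 CPM per kb were the lowest, and Ciart had 0 counts in 4 mice. These values rest on the gene models of GENCODE M21 on GRCm38, where Arntl spans 7:113207465-113314126 on the plus strand and Clock 5:76209868-76304792 on the minus strand. The Period genes lie at 11:69095217-69109960 (Per1, plus), 1:91415982-91459324 (Per2, minus) and 4:151003652-151044665 (Per3, minus). Ciart lies at 3:95878503-95882251 (minus), Nr1d1 at 11:98767932-98775333 (minus) and Nr1d2 at 14:18204054-18239127 (minus). Dbp lies at 7:45705088-45710203 (plus) and Tef at 15:81802421-81826863 (plus). The counting strand was not given in the sources used here, so reads of opposite-strand neighbours that share exon bases cannot be told apart. Dbp shares 539 exon bases, 18.0% of its own, with Sphk2, which had a median of 17.8 CPM over all mice. Nr1d1 shares 263 exon bases, 8.55% of its own, with Thra at a median of 6.05 CPM, and values of both members are uncertain to that extent.

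**Figure D2:**
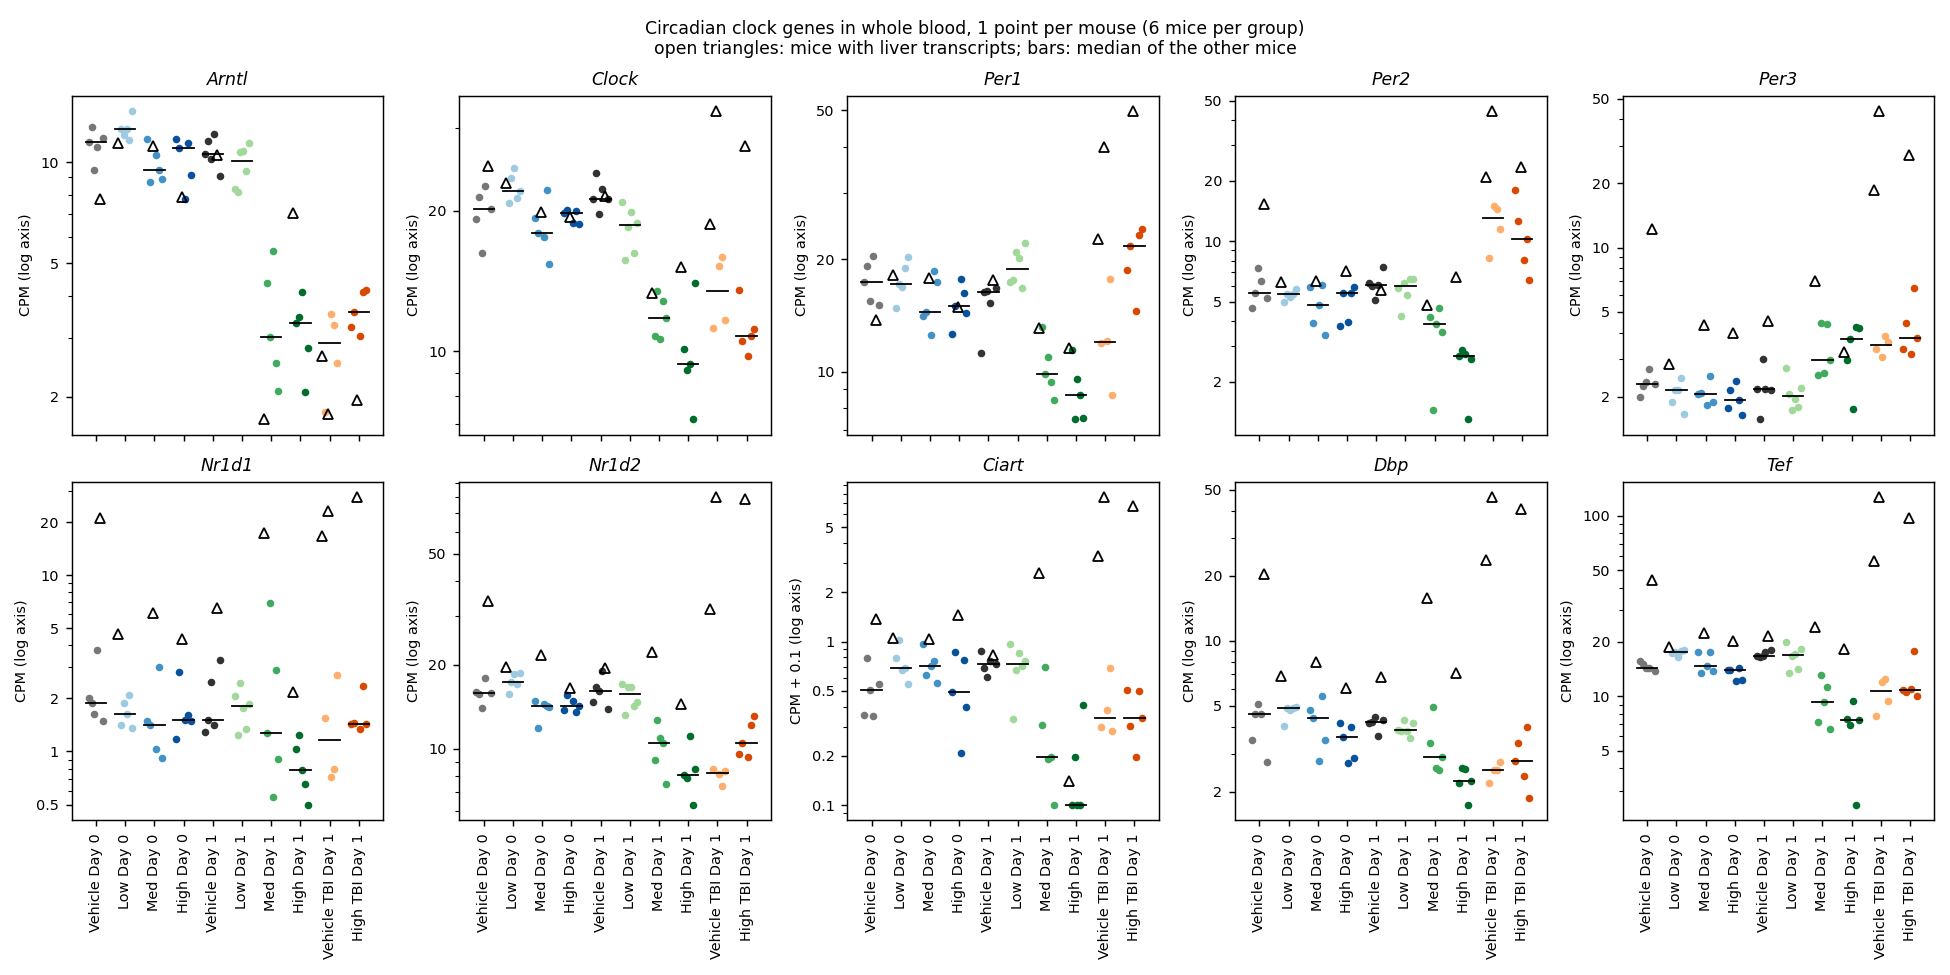
Level of each of the 10 clock genes in each of the 60 mice (CPM, log axis) by group, with mice with liver transcripts as open triangles and the median of the other mice as a bar. Ciart is drawn with a small constant added because some mice have 0 counts. Arntl lies between 7.74 and 14.2 CPM in 6 groups and between 1.71 and 7.07 CPM in Med Day 1, High Day 1 and both TBI groups.

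Any difference among the 10 groups was tested for each gene with edgeR's quasi-likelihood test, and p-values throughout were Benjamini-Hochberg adjusted over all genes tested. Of the 10 clock genes 9 passed an adjusted p of 0.05, against 76.0% of all genes tested, and Nr1d2 did not (adjusted p = 0.104). With the liver transcript mice left out Nr1d2 passed (adjusted p = 4.62e-12) and Nr1d1 did not (adjusted p = 0.223). Among the 4 Day 0 groups 0 of the 10 passed, against 14.4% of all genes. Of the 10, 1 was under an unadjusted p of 0.05, for which no share of all genes is given here or below. Without the mice with liver transcripts 2 passed among the 4 Day 0 groups against 10.6% of all genes, Tef at an adjusted p of 0.0146 and Nr1d2 at 0.047. Among the 4 unirradiated Day 1 groups 9 passed, against 66.2% of all genes, with Dbp at an adjusted p of 0.267, and all 10 passed without the mice with liver transcripts, against 65.8%. Ranked by median without those mice, neighbouring groups overlapped in range in all but 2 of 90 neighbouring pairs over the 10 genes. The exceptions were Arntl between Med Day 0 (lowest 8.73 CPM) and High TBI (highest 4.15 CPM), and Nr1d2 between High TBI (lowest 9.33 CPM) and vehicle TBI (highest 8.49 CPM). Neighbours in rank are the closest groups, so these overlaps say little about groups farther apart. Without the mice with liver transcripts Tef, for example, ran from 16.6 to 18.2 CPM in vehicle Day 1 and from 2.49 to 9.38 CPM in High Day 1.

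The comparison that bears most directly on sampling time set vehicle Day 1 against vehicle Day 0, since these mice differed in day and not in drug or irradiation. Called genes here and below passed an adjusted p of 0.05 and an absolute log2 fold change above 1, and a fold change is of the first group named over the second. In vehicle mice, 0 of the 10 clock genes were called, against 0.0% of 24375 genes tested by edgeR, and 0 were under an unadjusted p of 0.05 in edgeR and 0 in DESeq2. Arntl ran from 7.75 to 12.7 CPM with a median of 11.3 on Day 0, and from 9.06 to 12.2 CPM with a median of 10.5 on Day 1. The groups overlapped over most of their range. The log2 fold change of Arntl was −0.01 ± 0.12 (SE) with a 95% interval of −0.26 to 0.25. Dbp without the mice with liver transcripts ran from 2.74 to 5.11 CPM on Day 0 and from 3.61 to 4.42 CPM on Day 1, so that the Day 1 values lay inside the Day 0 range. Its log2 fold change was 0.02, with an interval of −0.30 to 0.34. Over the 10 genes the log2 fold changes ran from −0.94 (Nr1d1) to 0.21 (Ciart) with all mice and from −0.21 (Per1) to 0.56 (Ciart) without the mice with liver transcripts. Tef alone was then under an unadjusted p of 0.05, at 0.00772, with a log2 fold change of 0.22 and an adjusted p of 0.292. In those mice Tef ran from 13.7 to 15.7 CPM on Day 0 and from 16.6 to 18.2 CPM on Day 1, without overlap.

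On Day 0 the 3 dosed groups were compared with vehicle of the same day. No clock gene was called in Low, Med or High Day 0, against 4.5%, 0.0% and 0.0% of all genes tested. None was under an unadjusted p of 0.05 in edgeR or in DESeq2. Per1, a repressor whose transcript also answers to stress hormones, ran from 13.7 to 20.4 CPM in vehicle, from 14.8 to 20.3 CPM in Low, from 12.5 to 18.6 CPM in Med and from 12.6 to 17.7 CPM in High. All 4 ranges overlapped. Without the mice with liver transcripts Tef passed the adjusted p in Low Day 0 (0.0136) with a log2 fold change of 0.26 ± 0.06, at 16.6 to 18.1 CPM against 13.7 to 15.7 CPM in vehicle. These ranges did not overlap, but the fold was below the limit for a call. Low Day 0 also had lower erythroid marker levels, with a median sum of 39937 CPM for 8 genes against 134480 CPM in vehicle, whose part in the result was not tested.

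On Day 1 the Low group had 0 called clock genes against 0.0% of all genes tested. In edgeR 2 of the 10, Per1 and Clock, were under an unadjusted p of 0.05, and 2 were in DESeq2. The share of all genes under that unadjusted limit is not given, so these 2 are a description only. Clock, the partner of ARNTL, ran from 15.7 to 20.9 CPM in Low Day 1 and from 19.7 to 24.1 CPM in vehicle Day 1, which overlapped. Low Day 1 was also set against Low Day 0, where 0 members were called, against 6.14% of all genes, and 3 passed the adjusted p alone, against 21.0% of all genes. Arntl fell by 0.34 on the log2 scale (adjusted p = 0.0138), Clock fell by 0.30 (adjusted p = 0.01) and Dbp fell by 0.37 (adjusted p = 0.033). Without the mouse with liver transcripts Dbp no longer passed (adjusted p = 0.0637).

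Med and High Day 1 differed from vehicle. Arntl, the activator at the head of the loop, ran from 9.06 to 12.2 CPM with a median of 10.5 in vehicle Day 1. It ran from 1.71 to 5.44 CPM with a median of 2.76 in Med Day 1 and from 2.06 to 7.07 CPM with a median of 3.38 in High Day 1. Neither dosed group overlapped vehicle Day 1, nor its own Day 0 group, where the lowest values were 8.73 CPM in Med and 7.74 CPM in High. Arntl fell by 1.68 ± 0.26 on the log2 scale in Med Day 1 (adjusted p = 6.38e-05) and by 1.40 ± 0.24 in High Day 1 (adjusted p = 0.000138). Without the mice with liver transcripts it fell by 1.54 ± 0.23 and by 1.67 ± 0.18. Against Day 0 of the same dose Arntl fell by 1.64 in Med and by 1.28 in High. Against Day 0 of the same dose 1 of 10 was called in Med (43.6% of all genes) and 2 of 10 in High (37.0% of all genes). The change of the dose difference between days was also called for Arntl, at −1.61 ± 0.28 in Med (adjusted p = 4.52e-05) and −1.29 ± 0.28 in High (adjusted p = 0.0005). For this change 0, 1 and 2 of 10 clock genes were called for Low, Med and High, against 7.69%, 42.0% and 36.7% of all genes. Fewer cells of a type and less RNA of this gene per cell cannot be told apart in whole blood.

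Arntl was called together with a large part of all genes. In Med Day 1 against vehicle Day 1 it was the 1 called gene of the 10, against 48.8% of all genes tested. In High Day 1, 3 of 10 were called, against 47.8% of all genes, and without the mice with liver transcripts 6 of 10 against 52.1%. By the adjusted p alone, in the mice without liver transcripts, 7 clock genes fell and 1 rose in Med Day 1, against 66.4% of all genes past it in either direction, and 9 fell and 1 rose in High Day 1, against 67.6%. The median log2 fold change of all genes was −0.38 in Med Day 1 and −0.48 in High Day 1. With library totals as the scale in place of TMM factors the medians were −1.76 and −1.96. Relative to that median Arntl stood at −1.30 in Med Day 1 and −0.92 in High Day 1, and at −1.31 and −0.91 under total counts.

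Blood cell markers moved in the same groups. The 8 T cell markers summed to between 356 and 463 CPM in vehicle Day 1, to between 68.9 and 161 CPM in Med Day 1 and to between 45.5 and 171 CPM in High Day 1, with no overlap. All 8 of 8 T cell markers and all 8 of 8 B cell markers were called lower in both groups. Of all genes 48.8% in Med and 47.8% in High Day 1 were called in either direction. Erythroid markers had median sums of 400570 CPM in Med and 457360 CPM in High Day 1 against 99659 CPM in vehicle. Platelet markers had median sums of 16625 CPM in Med and 20885 CPM in High Day 1 against 2256 CPM in vehicle. Monocyte markers had 1037 and 1280 CPM against 519 CPM. Neutrophil markers had 883 and 659 CPM against 582 CPM, and NK cell markers 92.2 and 133 CPM against 119 CPM. The part of these cell types in the differences of clock genes was not tested.

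**Figure D3:**
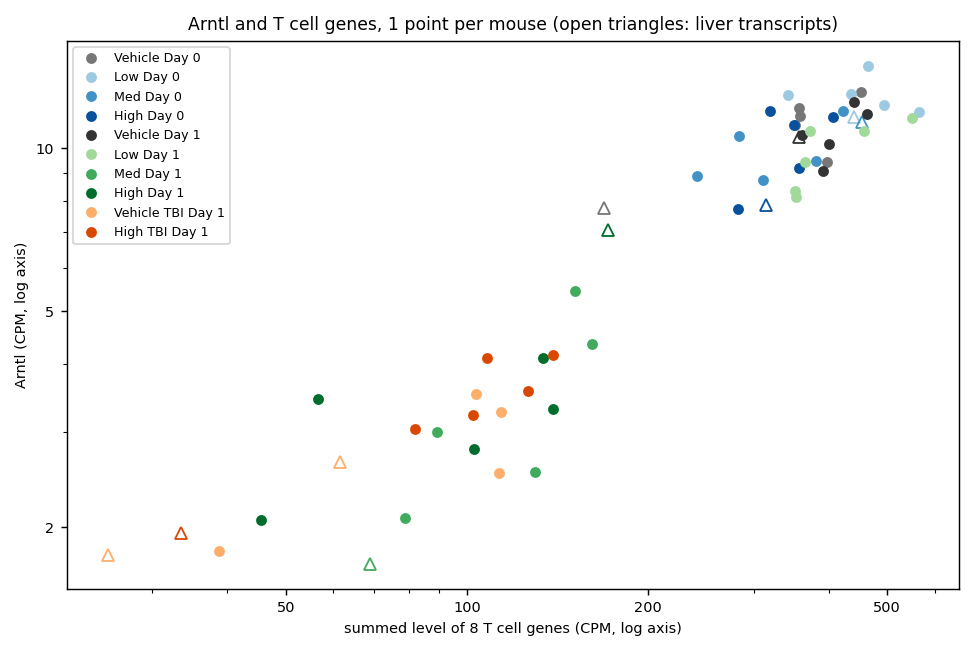
Level of Arntl (CPM) against the summed level of 8 T cell markers (CPM) for each of the 60 mice, on log axes, by group. Med Day 1, High Day 1 and both TBI groups, with T cell sums of at most 171 CPM, hold Arntl at 7.07 CPM or less, and the other 6 groups lie higher in Arntl. Vehicle Day 0 mouse 17, with liver transcripts, also has a low T cell sum, at 169 CPM, with Arntl at 7.75 CPM.

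Clock moved with Arntl in these groups. It ran from 19.7 to 24.1 CPM in vehicle Day 1, from 10.6 to 13.5 CPM in Med Day 1 and from 7.16 to 15.1 CPM in High Day 1, without overlap. Clock fell by 0.78 ± 0.09 on the log2 scale in Med Day 1 (adjusted p = 3.82e-06) and by 0.92 ± 0.16 in High Day 1 (adjusted p = 0.000209). Neither reached the fold limit with all mice. In the mice without liver transcripts Clock fell by 1.02 in High Day 1 and was called.

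The repressors did not move as 1 group. Per2 ran from 5.09 to 7.42 CPM in vehicle Day 1, from 1.44 to 4.79 CPM in Med Day 1 and from 1.30 to 6.66 CPM in High Day 1. The highest High Day 1 value came from the mouse with liver transcripts, and without it the group ended at 2.87 CPM, below all vehicle mice. Per2 fell by 0.62 in Med Day 1 (adjusted p = 0.0302) and by 0.86 in High Day 1 (adjusted p = 0.0172), and by 1.23 in High Day 1 without the mice with liver transcripts (adjusted p = 9.05e-05). Per1 fell by 0.47 in Med Day 1 (adjusted p = 0.0142) and by 0.66 in High Day 1 (adjusted p = 0.00183). The median of all genes also fell in both comparisons, so Per1 was close to the typical gene. Without the mice with liver transcripts Per1 ran from 11.2 to 16.8 CPM in vehicle Day 1. It ran from 8.41 to 13.1 CPM in Med Day 1 and from 7.47 to 11.4 CPM in High Day 1, and both overlapped vehicle.

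With TMM factors Per3 differed in direction from the other Period genes. In the mice without liver transcripts it ran from 1.57 to 2.99 CPM in vehicle Day 1, from 2.53 to 4.44 CPM in Med Day 1 and from 1.76 to 4.23 CPM in High Day 1. The ranges overlapped. Per3 rose by 0.68 ± 0.22 in Med Day 1 (adjusted p = 0.014) and by 0.70 ± 0.24 in High Day 1 (adjusted p = 0.02) without those mice, while with all mice the adjusted p was 0.0644 and 0.192. Under total counts the median of all genes was −1.76 in Med Day 1 and −1.96 in High Day 1. With all mice, Per3 in High Day 1 stood above the median of all genes, by 0.91 with TMM and 0.86 with total counts. Its log2 fold change under total counts was thus negative, so the direction of Per3 in High Day 1 depended on the scale.

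Ciart, a repressor of the ARNTL and CLOCK dimer, was near the limit of detection. It had 19 to 27 counts in each vehicle Day 1 mouse, at 0.503 to 0.772 CPM. In High Day 1 it had 0, 0, 0, 1, 1 and 5 counts, at 0 to 0.310 CPM, which did not overlap vehicle. Ciart fell by 2.86 ± 0.63 on the log2 scale in High Day 1 (adjusted p = 0.0013) and by 2.56 ± 0.64 without the mice with liver transcripts. In Med Day 1 it had 72 counts in mouse 37, which had liver transcripts, and 5 or fewer in the other 5 mice. There Ciart differed by 0.03 ± 0.72 on the log2 scale over all mice, and by −1.73 ± 0.56 without mouse 37 and the vehicle mouse with liver transcripts (adjusted p = 0.0124). The change of the High dose difference between days was called for Ciart at −2.95 ± 0.85 (adjusted p = 0.00609).

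The nuclear receptors and the output factors were lower in High Day 1. Nr1d1 ran from 1.29 to 6.52 CPM in vehicle Day 1 and from 0.496 to 2.18 CPM in High Day 1, with overlap. It fell by 1.28 ± 0.46 (adjusted p = 0.0263), and without vehicle mouse 29, which had liver transcripts, its log2 fold change was −0.80 (adjusted p = 0.0921). Leaving out High mouse 47 or 48 also ended the call, with adjusted p of 0.0506 and 0.0557. Without all mice with liver transcripts it fell by 1.16 ± 0.35 (adjusted p = 0.00891). Nr1d2 fell by 0.75 in High Day 1 (adjusted p = 0.00269), and in Med Day 1 it fell by 0.59 without the mice with liver transcripts (adjusted p = 0.0029).

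Tef ran from 16.6 to 18.2 CPM in vehicle Day 1, from 6.60 to 13.2 CPM in Med Day 1 and from 2.49 to 9.38 CPM in High Day 1 without the mice with liver transcripts. The ranges did not overlap. Tef fell by 0.78 in Med Day 1 (adjusted p = 0.000634) and by 1.24 in High Day 1 (adjusted p = 0.000254) in those mice. Dbp ran from 3.61 to 4.42 CPM in vehicle Day 1 and from 1.73 to 2.58 CPM in High Day 1 in the same mice, without overlap, and fell by 0.78 ± 0.18 (adjusted p = 0.00119). Over all mice Dbp differed by −0.49 (adjusted p = 0.182). Relative to the median of all genes Dbp stood at −0.01 with all mice and −0.23 without the mice with liver transcripts, so it was close to the typical gene.

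**Figure D4:**
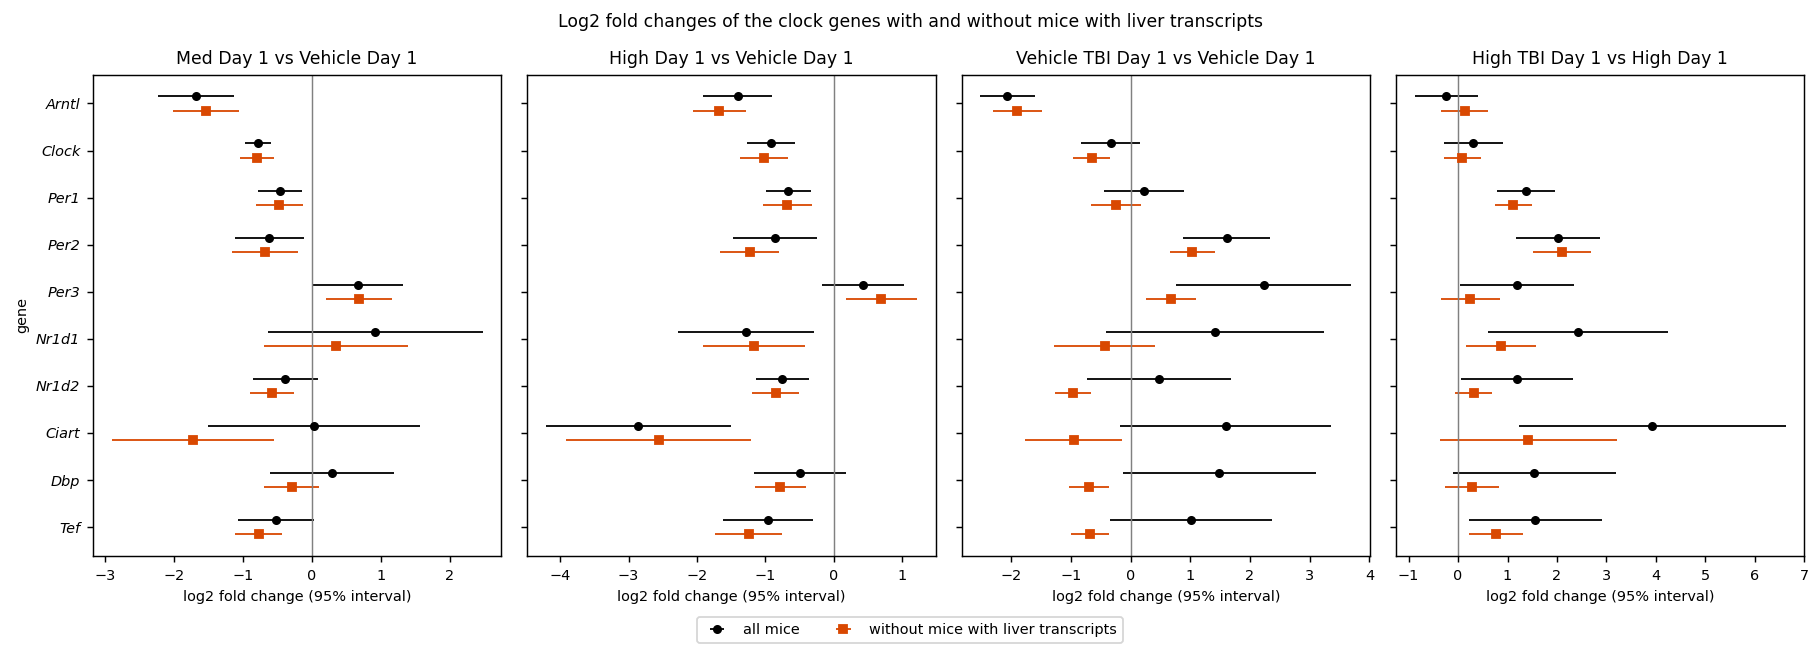
Log2 fold change of each clock gene with its 95% interval in 4 comparisons, with all mice and without mice with liver transcripts. Arntl lies between −2.07 and −1.40 in the first 3 comparisons in both sets, while Per1, Nr1d1, Nr1d2, Ciart, Dbp and Tef change sign in vehicle TBI against vehicle Day 1.

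Irradiation was tested in vehicle mice of Day 1. Arntl ran from 1.78 to 3.52 CPM with a median of 2.58 in vehicle TBI, against 9.06 to 12.2 CPM in vehicle Day 1, with no overlap. It fell by 2.07 ± 0.21 on the log2 scale (adjusted p = 1.45e-05), and by 1.90 ± 0.19 without the mice with liver transcripts (adjusted p = 1.16e-06). Against vehicle Day 0 it fell by 1.95 (adjusted p = 9.67e-05). In all, 3 of 10 clock genes were called against vehicle Day 1 (Arntl, Per2 and Per3), against 36.0% of all genes tested. Against vehicle Day 0, 2 of 10 were called (Arntl and Per2), against 26.9% of all genes. The 2 comparisons share the irradiated mice.

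Per2 rose where Arntl fell. It ran from 8.29 to 44.5 CPM with a median of 14.7 in vehicle TBI, and from 8.29 to 14.9 CPM in its 4 mice without liver transcripts, against 5.09 to 7.42 CPM in vehicle Day 1. The groups did not overlap in either set. Per2 rose by 1.61 ± 0.34 (adjusted p = 0.00195), and by 1.03 ± 0.18 without the mice with liver transcripts (adjusted p = 0.000172). Per3 rose by 2.23 ± 0.68 with all mice (adjusted p = 0.0178), when its range reached 43.7 CPM in mouse 51, and by 0.68 ± 0.20 without the mice with liver transcripts (adjusted p = 0.00835). Per1 ran from 8.67 to 17.7 CPM in the 4 mice without liver transcripts, against 11.2 to 16.8 CPM in vehicle Day 1. It showed no difference past the threshold in either set, with log2 fold changes of 0.23 and −0.25.

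For 6 genes the direction turned when mice 49 and 51 of vehicle TBI and mouse 29 of vehicle Day 1 were left out. Nr1d2 had a log2 fold change of 0.47 (adjusted p = 0.503) with all mice, and it fell by 0.97 ± 0.14 without the mice with liver transcripts (adjusted p = 3.24e-05). It then ran from 7.36 to 8.49 CPM, below all vehicle Day 1 mice at 13.8 to 19.0 CPM. Dbp had 1.48 (adjusted p = 0.118) with all mice and fell by 0.70 ± 0.16 without them (adjusted p = 0.00152). Tef had 1.01 with all mice and fell by 0.68 ± 0.15 (adjusted p = 0.00134), and Ciart had 1.59 and fell by 0.95 ± 0.38 (adjusted p = 0.0426). Nr1d1 had 1.41 and −0.44, and Per1 0.23 and −0.25, none past the threshold. Clock fell by 0.65 without the mice with liver transcripts (adjusted p = 0.00138), against −0.34 with all mice (adjusted p = 0.23). In those mice 6 clock genes fell and 2 rose by the adjusted p alone, against 59.3% of all genes past it in either direction.

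Cell markers moved with irradiation too. T cell markers summed to between 25.3 and 114 CPM in vehicle TBI, and B cell markers to between 96.9 and 278 CPM, against 1486 to 2362 CPM for B cell markers in vehicle Day 1. All 8 of 8 markers of each list were called lower, against 36.0% of all genes called in either direction. Neutrophil markers had a median sum of 4595 CPM against 582 CPM in vehicle Day 1. Platelet markers had 13287 CPM against 2256 CPM, and monocyte markers 1007 CPM against 519 CPM. The part of these cell types in the clock gene differences was not tested. The median log2 fold change of all genes was 0.088, and relative to it Arntl stood at −2.16, or at −2.20 under total counts.

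The High dose in irradiated mice was compared with vehicle TBI, and 0 of 10 clock genes were called, against 0.0% of all genes tested. None was under an unadjusted p of 0.05 in edgeR or in DESeq2 with all mice. Arntl ran from 1.95 to 4.15 CPM in High TBI and from 1.78 to 3.52 CPM in vehicle TBI, and the groups overlapped. Its log2 fold change was 0.30 with an interval of −0.23 to 0.84. Intervals were wide for the genes that moved with liver transcripts, at −2.76 to 2.04 for Nr1d1 and −2.82 to 1.74 for Dbp. Differences inside these bounds are therefore not excluded. With those mice left out Per1 had a log2 fold change of 0.64 ± 0.22 and Nr1d2 one of 0.38 ± 0.15, with unadjusted p of 0.0106 and 0.0252 and adjusted p of 0.977 for both.

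High TBI was also set against High Day 1, to separate irradiation from the dose. There 4 of 10 clock genes were called, against 20.6% of all genes: Per1, Per2, Nr1d1 and Ciart. Per2 ran from 6.44 to 23.3 CPM in High TBI and from 1.30 to 6.66 CPM in High Day 1, which overlapped only at the High Day 1 mouse with liver transcripts. It rose by 2.02 ± 0.39 (adjusted p = 0.00218), and by 2.10 ± 0.28 without the mice with liver transcripts (adjusted p = 2.36e-05). Per1 rose by 1.37 ± 0.27 (adjusted p = 0.00233) at 14.6 to 49.8 CPM against 7.47 to 11.6 CPM, with no overlap, and by 1.12 ± 0.18 without those mice. The calls of Nr1d1 at 2.43 ± 0.84 (adjusted p = 0.0472) and Ciart at 3.93 ± 1.25 (adjusted p = 0.0333) were lost without High TBI mouse 57, when the log2 fold changes were 0.64 and 1.79, with adjusted p of 0.217 and 0.105. They were also lost without 1 unirradiated High mouse: that of Nr1d1 without any of mice 44 to 48 (adjusted p between 0.0706 and 0.0814), and that of Ciart without any of mice 43 to 47 (adjusted p between 0.0535 and 0.061). Arntl differed by −0.24 ± 0.30 (adjusted p = 0.583). Its levels were low in both groups.

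The difference between irradiated and unirradiated mice depended on the dose for Arntl and Per1. The High dose by irradiation term was 1.93 ± 0.35 for Arntl (adjusted p = 0.000345) and 1.26 ± 0.45 for Per1 (adjusted p = 0.035), with 2 of 10 clock genes called against 29.6% of all genes. The median of this term over all genes was 0.60. Median Arntl was 10.5 CPM in vehicle Day 1, 3.38 CPM in High Day 1, 2.58 CPM in vehicle TBI and 3.39 CPM in High TBI. With the liver transcript mice left out 8 of 10 were called, against 41.8% of all genes.

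Ratios within a mouse compare genes that peak at opposite hours and do not depend on scaling between libraries. The log2 ratio of Arntl to Dbp counts had group medians between 1.29 and 1.52 in the 6 groups of Day 0, vehicle Day 1 and Low Day 1, without the mice with liver transcripts. The lowest of these mice was at 0.77, in Med Day 0, and the highest at 2.10. Medians were 0.00 in Med Day 1, 0.41 in High Day 1, 0.13 in vehicle TBI and 0.21 in High TBI, with ranges that reached 1.06 in Med Day 1 and 1.15 in High TBI. High Day 1 (0.24 to 0.68) and vehicle TBI (−0.28 to 0.48) lay below all mice of the 6 groups, while Med Day 1 and High TBI overlapped them. The log2 ratio of Arntl to Per1 had medians between −0.96 and −0.50 in the 6 groups and between −2.52 and −1.42 in the other 4. Arntl to Nr1d1 gave medians between 2.53 and 2.96, and between 1.12 and 1.65, and its ranges overlapped in part. The median of each ratio was thus lower in the same 4 groups. Arntl is the numerator of every ratio, so the ratios are not independent of each other or of its fall. In High TBI median Per1 was also higher, at 21.7 CPM against 16.3 CPM in vehicle Day 1, without the mice with liver transcripts. Among the other 6 groups the Arntl to Dbp and Arntl to Nr1d1 ranges of every pair overlapped, while Arntl to Per1 in Low Day 1 (−1.11 to −0.82) lay below Low Day 0 (−0.70 to −0.24).

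**Figure D5:**
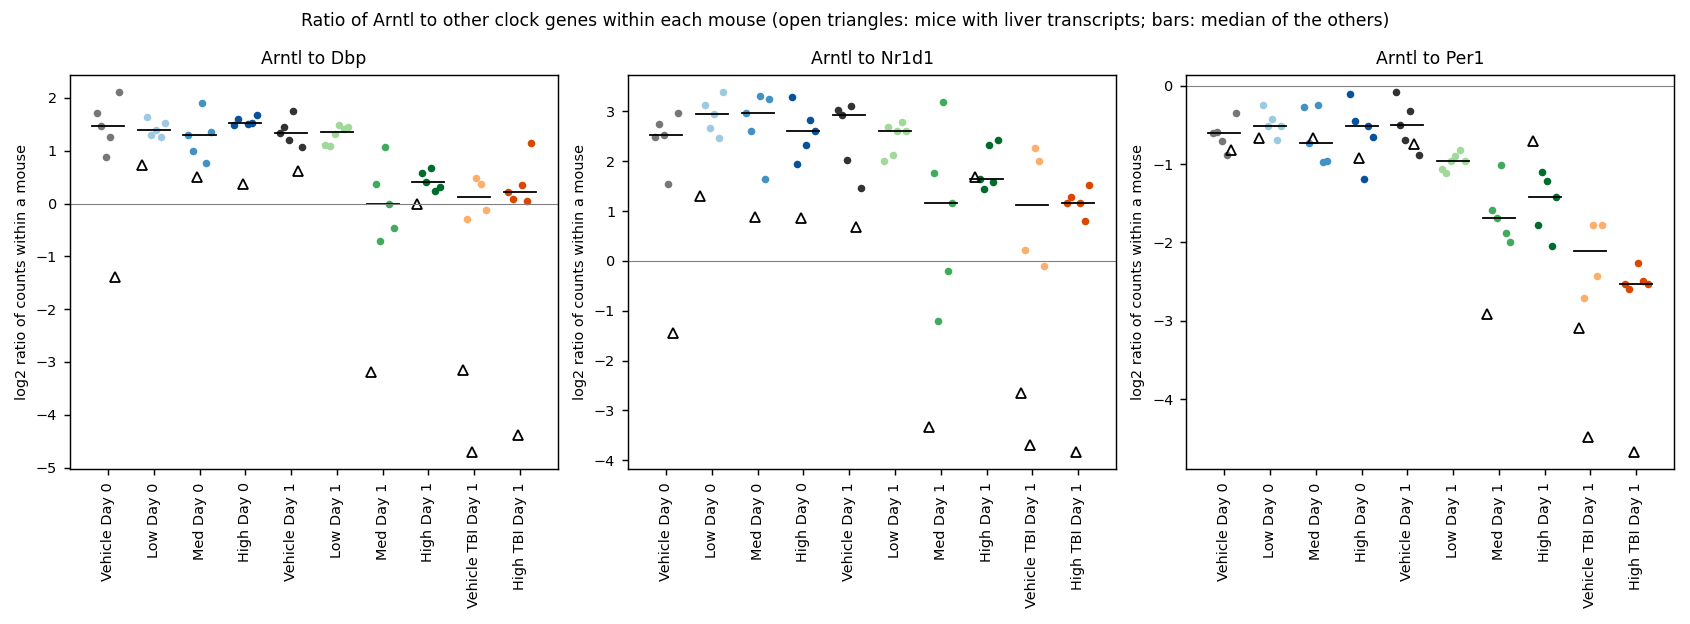
Log2 ratio of Arntl to Dbp, to Nr1d1 and to Per1 counts in each mouse by group, with mice with liver transcripts as open triangles and the median of the others as a bar. Without those mice the Arntl to Dbp medians lie between 1.29 and 1.52 in 6 groups and between 0.00 and 0.41 in Med Day 1, High Day 1 and both TBI groups.

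A list of 16 other clock genes was followed beside the 10. In the 3 comparisons with vehicle on Day 0, 0 of them were called by edgeR, against 4.5%, 0.0% and 0.0% of all genes in Low, Med and High. In Med Day 1, 3 were called higher and 2 lower, against 48.8% of all genes called in either direction. In High Day 1, 2 were called higher and 4 lower, against 47.8%. In vehicle TBI against vehicle Day 1, 5 were called higher and 1 lower, against 36.0%. Npas2, a paralog of Clock, had the lowest p of the list over the 10 groups with all mice (adjusted p = 1.26e-18), followed by Csnk1e (adjusted p = 4.68e-18), which encodes a kinase of PER proteins. Csnk1e ran from 19.8 to 66.1 CPM in vehicle TBI against 14.2 to 17.5 CPM in vehicle Day 1, without overlap, and rose by 1.46 on the log2 scale (adjusted p = 0.000571). Npas2 ran from 0.159 to 0.371 CPM in vehicle Day 1 and from 2.15 to 6.41 CPM in High Day 1, without overlap. It rose by 3.58 in Med Day 1, by 4.25 in High Day 1 and by 2.10 in vehicle TBI on the log2 scale. On Day 0 Npas2 already ran from 1.14 to 2.54 CPM in High against 0.0901 to 0.609 CPM in vehicle, without overlap, although the log2 fold change of 2.41 ± 0.40 had an adjusted p of 0.546 (unadjusted p = 4.48e-05). In the joint test of the 4 Day 0 groups Npas2 passed (adjusted p = 0.002, and 0.00417 without the liver transcript mice), as 1 of 3 of the 16 genes to do so, against 14.4% of all genes. In High TBI against vehicle TBI its log2 fold change was 2.17 ± 0.48 (adjusted p = 1.00, unadjusted p = 0.000663). Arntl2, a paralog of Arntl, fell by 1.82, 1.10 and 1.63 in the same order. Nfil3, which competes with DBP and TEF for D-boxes, ran from 9.13 to 16.6 CPM in vehicle TBI against 3.39 to 3.97 CPM in vehicle Day 1, and rose by 1.68. Hlf, the relative of Dbp and Tef, had a log2 fold change of 3.17 in vehicle TBI with all mice and −0.06 without the mice with liver transcripts. The size of the Hlf value thus rested on those mice.

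Over the 50 mice without liver transcripts, levels of pairs of clock genes were correlated for the 9 genes with enough counts, in 36 pairs, on log2(CPM + 1) after each group's mean was subtracted. Pearson's r had a median of 0.20 and ran from −0.36 (Arntl and Per3) to 0.58 (Nr1d2 and Tef). In all, 5 pairs passed an adjusted permutation p of 0.05 over the 36 (Per3 with Nr1d1, Nr1d1 with Dbp, and Tef with Dbp, Nr1d2 and Clock), all positive. Nr1d2 and Tef gave r = 0.58 (permutation p = 0.00264, adjusted p = 0.0238), rho = 0.38 (permutation p = 0.017, adjusted p = 0.1), and r = 0.49 without the 2 mice farthest from the median. Dbp and Tef gave r = 0.47 (permutation p = 0.00094, adjusted p = 0.0168), rho = 0.40 (permutation p = 0.00846, adjusted p = 0.0761), and r = 0.43 without 2 mice. Arntl and Dbp, which peak at opposite hours, gave r = 0.15 (permutation p = 0.419), and Arntl and Nr1d1 gave r = −0.21. For these pairs no r over all 60 mice is given because the mice with liver transcripts form a cluster of their own, and with total counts as the scale 34 of 36 pairs passed in the same 50 mice.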

How the data were processed

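Whole blood of 60 mice was profiled by RNA-seq, 6 mice in each of 10 groups set by the labels, and each mouse contributed 1 library. The deposited tables hold raw counts per gene. The authors made them by read trimming in Trimmomatic 0.36, alignment to GRCm38 in STAR 2.5.2b and gene counting of unique hits in Subread 1.5.2. The deposited tables also carry the authors' own DESeq2 results, as log2 fold changes, p-values and adjusted p-values, and a mean signal of normalized counts, none of which was used. The labels name polyA selection and the methods a globin and ribosomal depletion kit with stranded libraries; which applied was not settled, and the counting strand and gene annotation release are not given in the sources used here.

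Each pair of groups was fitted in edgeR 4.0.16 with its quasi-likelihood test, TMM factors and genes with at least 10 counts summed over the mice fitted. P-values were Benjamini-Hochberg adjusted over all genes tested, and a gene was called at an adjusted p of 0.05 and an absolute log2 fold change above 1. Terms for a dose by day or dose by irradiation difference were fitted over the 4 groups concerned, and differences among groups as a joint test. Levels are CPM on TMM factors of all 60 mice. Standard errors were derived from the F statistic. Ratios added 0.5 to each count, and correlations used 100000 permutations. Scripts were tested on simulated data. DESeq2 1.42.0, RLE size factors, total counts, other filters, 1 fit of all mice, leaving out each mouse and leaving out the mice with liver transcripts were the alternatives. Other clock genes are named as the 3 with the lowest p over the 10 groups plus paralogs and partners of members chosen after their values were seen, and the nearest genes as the 2 with the highest r for each member; those of Tef over 50 mice are not reported here. The member genes and the lists were chosen with earlier results of these data known. Replicates are separate mice, and no interval covers more than the spread between them.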

Additional observations from a re-analysis of the deposited data

Results flagged for a closer look

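Among the 100 combinations of a clock gene and a group, 26 held a mouse whose gap to its nearest neighbour took up more of the group's range than Dixon's 95% critical value for 6 mice allows, while chance gives about 1 in 20. In 23 of the 26 the mouse was the highest and had liver transcripts. High TBI mouse 57 stood apart in Clock (0.692 of the range), Per3 (0.692), Nr1d1 (0.857), Nr1d2 (0.846), Ciart (0.871), Dbp (0.793) and Tef (0.755). Vehicle Day 0 mouse 17 stood apart in Per2 (0.632), Per3 (0.856), Nr1d1 (0.703), Nr1d2 (0.727), Dbp (0.718) and Tef (0.891). Vehicle Day 1 mouse 29 did so in Dbp (0.693) and Tef (0.667), Low Day 0 mouse 1 in Nr1d1 (0.685) and Dbp (0.638), and Med Day 0 mouse 9 in Per3 (0.668) and Nr1d2 (0.637). Med Day 1 mouse 37 stood apart in Ciart (0.626) and Dbp (0.667), High Day 1 mouse 43 in Dbp (0.751) and High Day 0 mouse 21 in Tef (0.663). The other 3 were mice without liver transcripts: vehicle Day 1 mouse 25 was lowest in Per1 (0.679), Med Day 1 mouse 39 was lowest in Per2 (0.715) and High Day 1 mouse 48 was highest in Ciart (0.662).

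In 5 cases the difference between groups itself differed by a tested term. The dose difference changed from Day 0 to Day 1 for Arntl in Med (−1.61 on the log2 scale) and High (−1.29) and for Ciart in High (−2.95). The High dose difference changed with irradiation for Arntl (1.93) and Per1 (1.26).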

How the results depend on the processing

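No paired analysis was possible because each of the 60 mice has its own animal number and belongs to 1 group. Of 147 counts of called clock genes recomputed under alternatives other than leaving out 1 mouse, 118 stayed within 1.5 times the count given in the report. Scaling by total counts changed most: it called 1 of 10 in Low Day 0, 7 in Med Day 1 and 10 in High Day 1 against vehicle, 1, 6 and 9 in Low, Med and High Day 1 against their own Day 0, 9 in High TBI against High Day 1, 4, 6 and 7 for the Low, Med and High dose by day terms, and 5 among the Day 0 groups. The share of all genes called under that scale is not given. That scale also lowered the median of all genes in Med and High Day 1 against vehicle. These counts are therefore not a result about clock genes. Without the mice with liver transcripts the counts were 2 in Med Day 1, 6 in High Day 1, 2 in Med Day 1 against Med Day 0, 2 in High TBI against High Day 1, 2, 4 and 8 for the Med by day, High by day and irradiation terms, 2 among the Day 0 groups, and 5 correlated pairs against 30 with all mice. Of all genes in those mice, 52.1% were called in High Day 1, 41.8% for the irradiation term and 10.6% among the Day 0 groups. The adjusted p alone gave 4 in Med Day 1, 8 in High Day 1, and 3, 4 and 5 in Low, Med and High Day 1 against their Day 0. Of all genes 21.0% passed it in Low Day 1 against Low Day 0. The filterByExpr rule gave 1 in High Day 1 against High Day 0 and 2 for Med by day, RLE size factors gave 2 for Med by day, DESeq2 gave 2 and 1 fit of all mice gave 8 in High TBI against High Day 1. Counts without a share of all genes beside them describe the processing and are not a result about clock genes.

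When single mice were left out in turn, the called genes numbered 1 to 2 in Med Day 1, 2 to 6 in High Day 1, 1 to 2 in Med Day 1 against Med Day 0, 2 to 5 in High Day 1 against High Day 0, 2 to 3 in vehicle TBI against vehicle Day 0 and 2 to 4 in High TBI against High Day 1. The share of all genes called in these fits is not given, so the counts are a description only. In vehicle TBI against vehicle Day 1 the sign turned for Per1 under total counts (−0.027), and without the mice with liver transcripts for Per1 (−0.25), Nr1d1 (−0.44), Nr1d2 (−0.97), Ciart (−0.95), Dbp (−0.70) and Tef (−0.68). Leaving out 1 mouse there gave −0.10 to 0.37 for Per1 and −0.40 to 0.65 for Nr1d2. The cause was not tested. Of all 140 differences of a clock gene between 2 groups, 25 changed sign under total counts and 33 without the mice with liver transcripts. The Arntl calls in Med Day 1, High Day 1 and vehicle TBI held under each alternative run. Ciart rests on 47 counts or fewer in each mouse without liver transcripts, which limits its precision.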

Other observations

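Genes that answer to glucocorticoids and genes of the immediate early response can move with handling and hour, and lists of 7 each were followed beside Per1. In the comparisons with vehicle on Day 0, and in vehicle Day 1 against vehicle Day 0, 0 of 7 were called in either list. Of all genes 4.5% were called in Low Day 0 and 0.0% in Med Day 0, High Day 0 and vehicle Day 1. In vehicle TBI against vehicle Day 1, where 36.0% of all genes were called, 3 of 7 steroid-responsive genes were called higher, with Klf9 at a log2 fold change of 2.30, Dusp1 at 2.15 and Zbtb16 at 2.01. Of the immediate early genes 4 of 7 were called higher there, with Junb at 1.95, Fos at 1.29, Jun at 1.23 and Ier2 at 1.08. In High TBI against High Day 1, 5 of 7 were called higher in each list, against 20.6% of all genes called in either direction. In High Day 1 against vehicle 1 of 7 immediate early genes was called lower, Fosb at −1.32, against 47.8% of all genes called in either direction. Under total counts all 7 immediate early genes were called lower in High Day 1, where the median of all genes was −1.96. The share of all genes called under that scale is not given.

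The genes nearest to each clock gene were taken as those with the highest Pearson r across the mice on log2(CPM + 1) after each group's mean was subtracted. The values over all 60 mice include the mice with liver transcripts, which form a cluster of their own, and are given as a description. Over all 60 mice Dbp was nearest to Cyp2d22 (r = 0.972) and Kyat3 (0.969), Tef to Akr1c13 (0.967) and Cyb5b (0.966), Nr1d2 to Cyb5b (0.971) and Suclg2 (0.970), Per3 to Myo5b (0.961) and Vwa8 (0.958), and Nr1d1 to Parva (0.959) and Kank1 (0.957). Over the 50 mice without liver transcripts the nearest genes were others: Vegfa (0.688) and Proz (0.667) for Dbp, Fh1 (0.751) and Rnf121 (0.699) for Nr1d2, Etfb (0.715) and Gja1 (0.70) for Per3, and Enpp2 (0.848) and Prelp (0.836) for Nr1d1. Arntl kept Slamf6, a receptor of lymphocytes, as its nearest gene in both sets (r = 0.881 over 60 mice and 0.875 over 50). The next was Gimap8 (0.838) over 60 mice and Gramd3 (0.862) over 50. Clock was nearest to Pmpca (0.898) and Ecsit (0.897), Per1 to Spg20 (0.836) and Gtf3c4 (0.828), and Per2 to Rnf103 (0.866) and Xbp1 (0.846) over 60 mice. Over 50 mice these were Zbtb5 (0.743) and Dcakd (0.736) for Clock, Zfp523 (0.619) and Pprc1 (0.60) for Per1, and Tor4a (0.835) and Anks1 (0.818) for Per2. Large r was common: between 10.7% (Arntl) and 53.5% (Nr1d2) of the genes compared had an absolute r over 0.5 over 60 mice. Over 50 mice this share ran from 0.349% (Per1) to 33.0% (Arntl). The mice share library preparation and depth range, and no p is given for genes chosen as the highest of all genes.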
